A study of Mus musculus with 6 samples.

Results

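The subject is the set of adherens and tight junction genes of the embryonic mouse epidermis, 35 genes named in a list of classical cadherins, catenins, nectins, claudins, tight junction plaque proteins and polarity scaffolds. All 35 were found by symbol among the 35275 Ensembl gene identifiers of the table. The measurement was RNA sequencing of suprabasal keratinocytes sorted from back skin of CD1 IGS embryos at E16.5, with 3 libraries labelled K10rtTA;TREspastin (K10-spastin here) and 3 labelled control. The keratin 10 promoter, active in cells that have left the basal layer, drives the doxycycline-dependent activator rtTA, which switches on the transgenes TRE-Spastin, a microtubule-severing enzyme, and TRE-H2B-GFP, a fluorescent histone. Dams were fed doxycycline from E14.5, the epidermis was freed with dispase and dissociated with trypsin and versene, and cells positive for the fluorescent histone were sorted. The sort, the strain, the age and the doxycycline are given for all 6 libraries, while the transgenes of the control embryos and the number of embryos in a library are not stated in the labels. The labels call the RNA samples independent without saying whether they came from separate embryos or litters, so a p-value here reflects the spread between libraries, which may be partly technical.

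Adherens junctions join neighbouring keratinocytes through cadherins and nectins, whose inner ends are tied to actin by catenins and afadin. Tight junctions seal the space between cells with claudin strands, and in the epidermis they work in the granular layer, where loss of claudin-1 in mice leads to lethal water loss after birth. The ZO proteins and cingulin form the plaque beneath the strands, and the Par and Scribble complexes help to set where the junction lies. Microtubules meet these junctions as well: PLEKHA7 tethers microtubule minus ends at adherens junctions, and cingulin binds microtubules in cultured epithelial cells.

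Spast, read as a check of the labels, stood at 1431, 639 and 213 FPKM (fragments per unit of gene length, scaled to sequencing depth) in K10-spastin 1 to 3, against 21.2, 24.02 and 21.4 FPKM in controls 1 to 3. Depth estimated from the low values of the table was 17.3 to 19.6 M fragments in K10-spastin and 16 to 22.5 M in control libraries, so that 3 fragments in a transcript of 1 kb were worth 0.133 to 0.187 FPKM. Of 11071 genes averaging 1 FPKM or more over the 6 libraries, 569 were higher and 653 lower in K10-spastin (limma, Benjamini-Hochberg adjusted p under 0.05). Summed markers of the suprabasal layer, Krt1 and Krt10 among them, were 43330 to 57670 FPKM in K10-spastin and 61680 to 79520 FPKM in control, and 1 of 10, Krt10, fell. Basal markers summed to 2541 to 4797 FPKM in K10-spastin and 4170 to 7283 FPKM in control, and 2 of 10 were called lower. Of the 10, 2 had a positive change, the median was -1.03, and 6 were lower at an unadjusted limma p under 0.05. Granular layer markers summed to 7947, 5637 and 18470 FPKM in K10-spastin 1 to 3, against 1831, 6170 and 5460 FPKM in controls 1 to 3. Of these markers 4 of 9 rose. Most of that sum in the controls was 1 gene, Lor, which was not called. Lor stood at 14560 FPKM in K10-spastin 3, against 2772 and 3007 FPKM in K10-spastin 1 and 2. Markers of periderm and simple epithelia, 1 of them also on the suprabasal list, summed to 1598 to 2912 FPKM in K10-spastin and 1223 to 1635 FPKM in control. That sum was nearly all the shared gene, Sbsn, at 1502 to 2788 FPKM in K10-spastin and 1151 to 1539 FPKM in control. Of the 7 tested, 5 had a negative change, all of them keratins, and the median was -0.73, with Grhl3 called higher and Krt13 called lower. Fibroblast markers summed to 0.791 to 3.03 FPKM in K10-spastin and 6.44 to 42.3 FPKM in control. Of the 4 tested, 1 was called lower, and all 4 were lower at an unadjusted limma p under 0.05. Hair placode markers summed to 9.88 to 13.25 FPKM in K10-spastin and 17.3 to 30.5 FPKM in control, with 2 of 3 tested called lower. Col1a1, Col1a2, Col3a1 and Lhx2, and of the keratins above Krt4 and Krt8, averaged under 1 FPKM in K10-spastin. They were tested only through their control values, so the filter favoured a fall in them. The highest sum in any library was 23.9 FPKM for 6 melanocyte markers, 3.69 FPKM for 4 Merkel cell markers, 2.11 FPKM for 6 immune markers and 0.361 FPKM for 6 endothelial markers, and none of the 3 genes of these lists that were high enough to test was called (limma, 0 at an unadjusted p under 0.05). Cd207 and Cd3e, which define Langerhans cells and T cells, were listed at 0 in every library. The part of these layer markers in the junction results was not tested, and in sorted bulk RNA fewer cells of a type and less RNA per cell cannot be told apart.

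Among the junction genes, the changes that passed the test lay in the tight junction plaque and its tricellular partner. Tjp1, which encodes the scaffold ZO-1, rose, while Tjp3 (ZO-3), Cgn (cingulin) and Marveld2 (tricellulin, which seals the points where 3 cells meet) fell. Of the 32 members that averaged 1 FPKM or more, 1 was called higher, where 5.14% of all genes tested were called higher, and 3 were called lower, where 5.9% of all genes were. In either direction 4 members, or 12.5% of those tested, were called, against 11% of all genes, so the share of calls was near the background. Cadherins, catenins, nectins with afadin, cytoskeletal linkers, claudins and polarity genes had no member called by limma, and at an unadjusted p under 0.05 they held 0, 1, 1, 1, 1 and 0 genes in that order. A further 3 members, Cldn6, Cldn7 and Cgnl1, were too low to be tested.

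**Figure D1:**
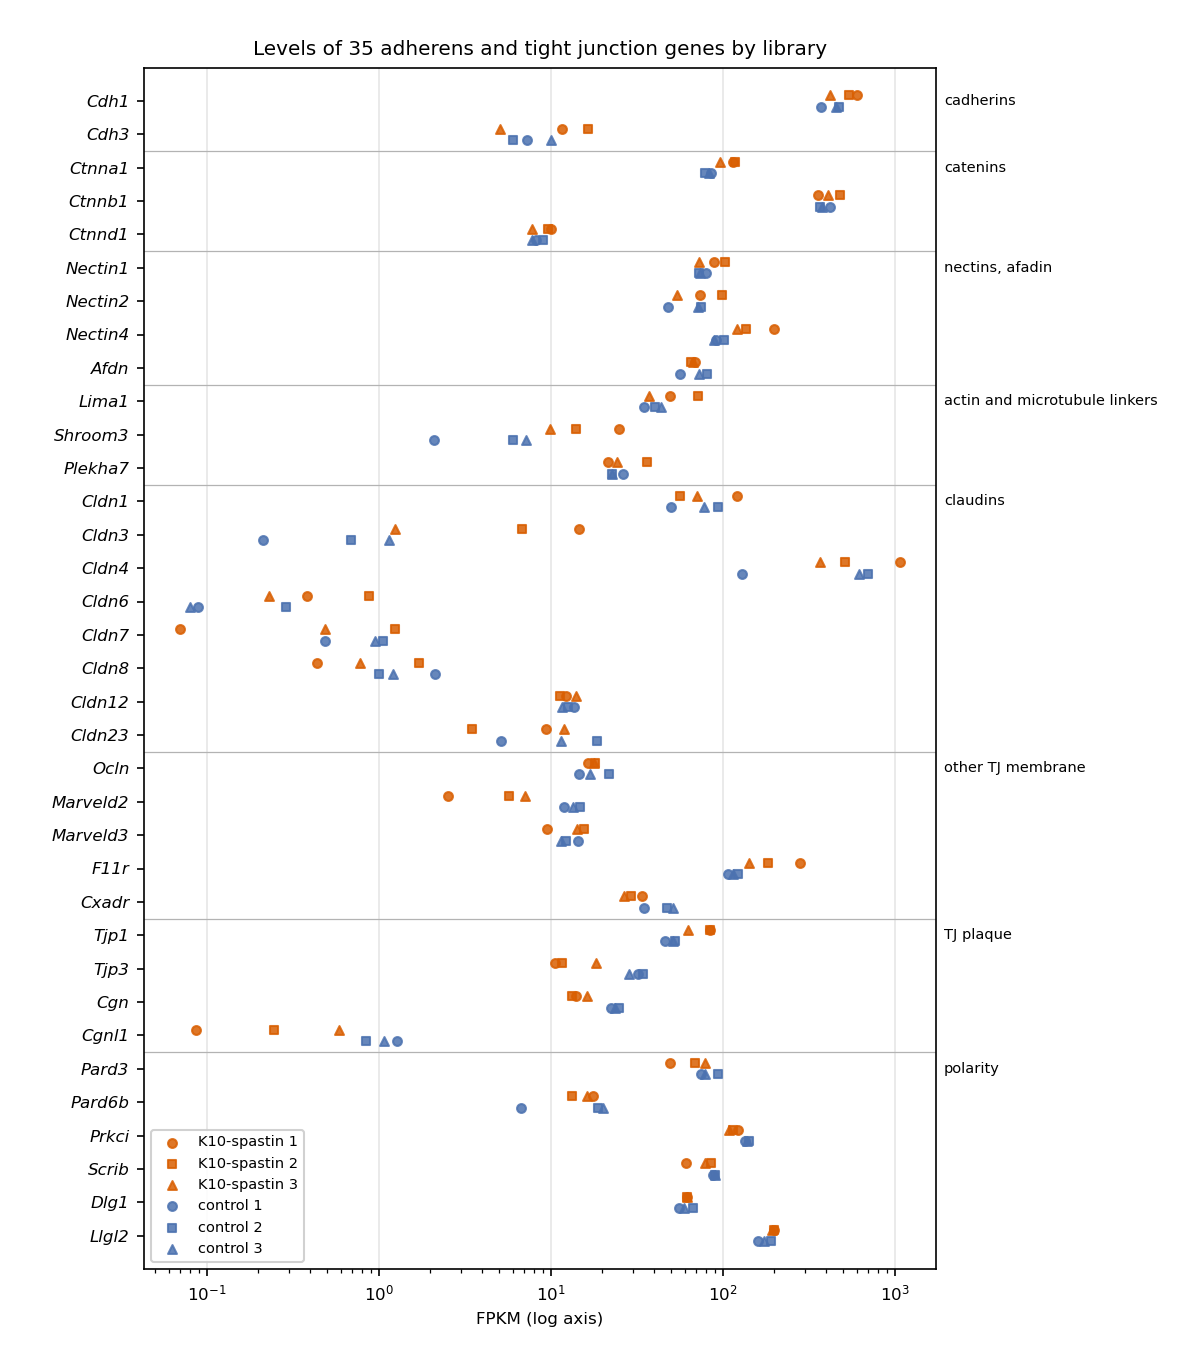
Level of each of the 35 junction genes in each library, in FPKM on a log axis, with K10-spastin libraries in orange above control libraries in blue and genes grouped by family (TJ, tight junction). The levels span from 0.0700 FPKM for Cldn7 to 1074 FPKM for Cldn4, both in K10-spastin 1, and in most genes the groups overlap.

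Tjp1 (ENSMUSG00000030516) stood at 84.96, 84.7 and 62.95 FPKM in K10-spastin 1 to 3, against 46.5, 52.5 and 51.3 FPKM in controls 1 to 3. Every K10-spastin library lay above every control. The change was 0.61 ± 0.16 on the scale of log2(FPKM + 1), used for every change below and given with its SE, with a limma adjusted p of 0.0493, close to the threshold. Robust variances, array weights and the removal of K10-spastin 3 kept the call, and the other 14 of 17 alternatives ended it (adjusted p up to 0.154).

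Tjp3 (ENSMUSG00000034917) stood at 10.5, 11.6 and 18.4 FPKM in K10-spastin 1 to 3, against 32.2, 34.25 and 28.6 FPKM in controls 1 to 3. The groups did not overlap, and K10-spastin 3 was the nearest to the controls. The change was -1.20 ± 0.22 (limma adjusted p = 0.02005), a mean of 13.5 ± 4.28 FPKM in K10-spastin and 31.7 ± 2.875 FPKM in control (SD, n = 3 each). Tjp3 shares 40 exonic bases with Apba3 on the opposite strand in GENCODE M21, and whether such reads were counted by strand is not stated.

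The ratio of Tjp1 to Tjp3 levels was 8.06, 7.28 and 3.41 in K10-spastin 1 to 3, against 1.45, 1.53 and 1.80 in controls 1 to 3. The ratio was chosen after these values were seen, and its exact permutation p of 0.1 is the smallest that 3 against 3 can give and no independent evidence. Tjp1 had the higher level of the pair in every library, and the ratio in each K10-spastin library lay above that in each control.

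Cgn (ENSMUSG00000068876), the plaque protein that links ZO proteins to actomyosin, stood at 13.99, 13.4 and 16.3 FPKM in K10-spastin 1 to 3, against 22.3, 24.9 and 23.8 FPKM in controls 1 to 3. All K10-spastin libraries lay below all controls, with means of 14.6 ± 1.54 FPKM in K10-spastin and 23.7 ± 1.29 FPKM in control (SD, n = 3 each). The change was -0.67 ± 0.15 (limma adjusted p = 0.0328). A stretch of 1716 bases of a Cgn transcript is 98.7% identical to the annotated gene BC021767, so reads of the pair may have been split between them.

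Its paralogue Cgnl1 (paracingulin) was scarce, at 0.0869, 0.246 and 0.590 FPKM in K10-spastin 1 to 3, against 1.29, 0.847 and 1.07 FPKM in controls 1 to 3. Each K10-spastin library was below each control. With the exon lengths of GENCODE M21, which may not be those of the table, these levels stand for about 12 to 81 fragments in K10-spastin and 106 to 227 in control. Cgnl1 fell short of the mean of 1 FPKM needed for testing, and in the fit with no filter its change was -0.67 ± 0.17 (limma adjusted p = 0.0845). That scale understates changes of low genes. The mean Cgnl1 level in K10-spastin was 0.288 times that in control, against 0.615 times for Cgn.

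Marveld2 (ENSMUSG00000021636) stood at 2.54, 5.70 and 7.08 FPKM in K10-spastin 1 to 3, against 11.9, 14.7 and 13.5 FPKM in controls 1 to 3. No K10-spastin library reached the controls, and the K10-spastin libraries differed more among themselves than the controls did. The change was -1.31 ± 0.31 (limma adjusted p = 0.0408), and the mean level in K10-spastin was 0.382 times that in control. Tjp3, Cgn and Marveld2 were each called in 11 of 17 alternatives. None of the called genes was called without control 1, control 2, control 3 or K10-spastin 2, with limma adjusted p up to 0.0846 for Tjp3, 0.145 for Cgn and 0.142 for Marveld2. Without K10-spastin 1 or K10-spastin 3, Tjp3, Cgn and Marveld2 stayed called. Over all genes, 219 were called higher and 223 lower without control 1, and 137 and 67 without control 2. Without control 3 the counts were 114 and 31, and without K10-spastin 2 they were 360 and 347. They were 687 and 700 without K10-spastin 1, 664 and 707 without K10-spastin 3, and 569 and 653 as reported. The cause of the lost calls was not tested. With the replicate number as a block, a fit of all libraries, none of the 4 junction genes was called (limma adjusted p = 0.0563 for Tjp3, 0.117 for Cgn and 0.0559 for Marveld2). Tjp3 was also not called without control 1 and K10-spastin 1 together (limma adjusted p = 0.0598), Cgn not under median-of-ratios scaling (0.0622) and Marveld2 not with no filter (0.0807). Directions did not change for these 4 genes in any alternative.

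**Figure D2:**
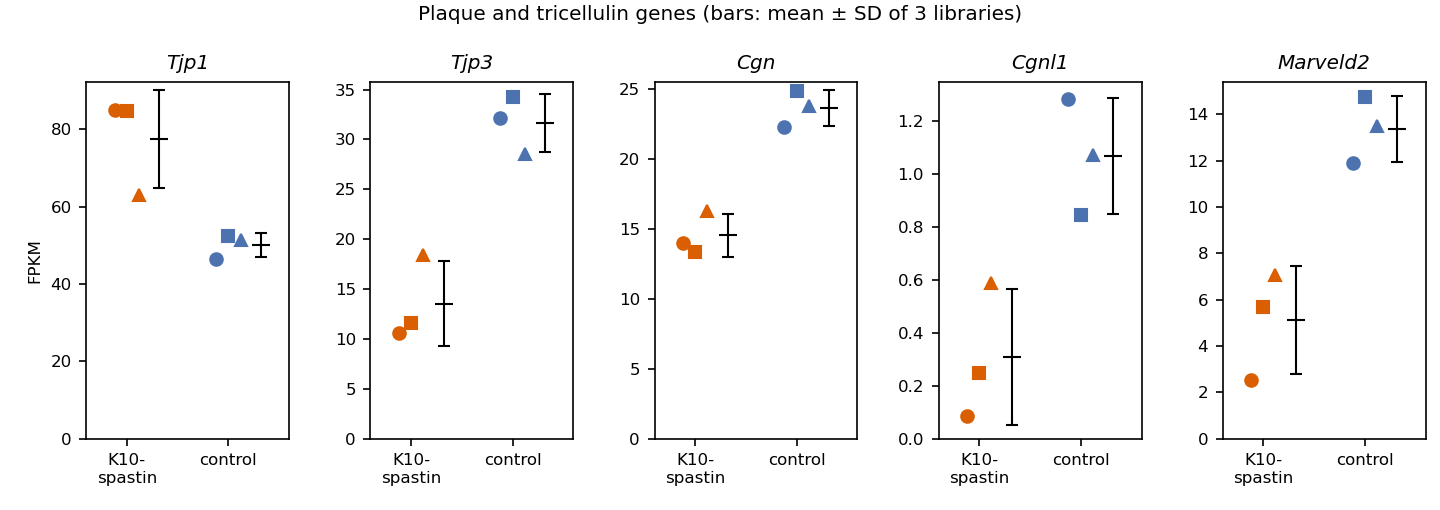
FPKM of Tjp1, Tjp3, both cingulin genes and Marveld2 in each library, K10-spastin in orange left of control in blue, with the mean and SD of 3 libraries in black. Tjp1 lies higher in every K10-spastin library and the other 4 genes lie lower, as Marveld2 does at 2.54 to 7.08 FPKM in K10-spastin, against 11.9 to 14.7 FPKM in control.

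The start regions are shown for the junction genes that limma called, Tjp1 upward and the rest downward. The sequences are the 250 bases before the annotated start (the upstream-most start where there is more than 1), 5′ to 3′ on the gene's strand, from RefSeq on GRCm38.p6, the C57BL/6J reference and not the CD1 IGS strain. Capitals mark CAGGTG or its reverse complement, the E-box bound by Snail and Zeb repressors of epithelial genes.
Tjp1 (chr7:65371245-65371494, strand -): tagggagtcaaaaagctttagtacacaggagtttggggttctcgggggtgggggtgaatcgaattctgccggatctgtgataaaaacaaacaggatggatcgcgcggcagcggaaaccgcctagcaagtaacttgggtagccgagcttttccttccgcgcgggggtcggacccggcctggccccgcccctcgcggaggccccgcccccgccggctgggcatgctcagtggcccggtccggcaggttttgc
Tjp3 (chr10:81291582-81291831, strand -): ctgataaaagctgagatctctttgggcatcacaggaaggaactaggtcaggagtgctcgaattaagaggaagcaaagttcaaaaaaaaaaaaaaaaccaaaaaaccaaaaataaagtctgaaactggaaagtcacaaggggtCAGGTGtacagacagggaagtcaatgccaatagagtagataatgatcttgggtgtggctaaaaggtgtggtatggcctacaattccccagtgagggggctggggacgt
Cgn (chr3:94786483-94786732, strand -): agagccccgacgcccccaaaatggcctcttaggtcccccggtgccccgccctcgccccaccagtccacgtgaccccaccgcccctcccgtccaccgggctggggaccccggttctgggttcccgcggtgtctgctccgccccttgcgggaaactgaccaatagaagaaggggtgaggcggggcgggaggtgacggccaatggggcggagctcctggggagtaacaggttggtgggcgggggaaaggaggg
Marveld2 (chr13:100616972-100617221, strand -): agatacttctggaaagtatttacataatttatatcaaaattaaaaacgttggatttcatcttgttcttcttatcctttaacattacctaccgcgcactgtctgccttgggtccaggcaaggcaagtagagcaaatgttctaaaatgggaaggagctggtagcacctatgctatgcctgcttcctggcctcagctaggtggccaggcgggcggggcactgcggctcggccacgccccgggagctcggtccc

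The windows were searched on both strands for AACCGGTT (Grainyhead-like factors), CAGGTG and TGANTCA (AP-1), no pair of which overlapped in these windows. A single match was found, a CAGGTG in Tjp3. Of 32851 RefSeq windows of the same length, 17.2% hold CAGGTG, 6.75% hold TGANTCA and 0.116% hold AACCGGTT. The windows differed in base composition, with 63.2% G and C and 22 CpG in Tjp1, 70.4% and 19 in Cgn, 50.4% and 10 in Marveld2, and 43.2% and 2 in Tjp3, where the median over all windows is 52.4% and 6. These are descriptions of the reference letters only.

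**Figure D3:**
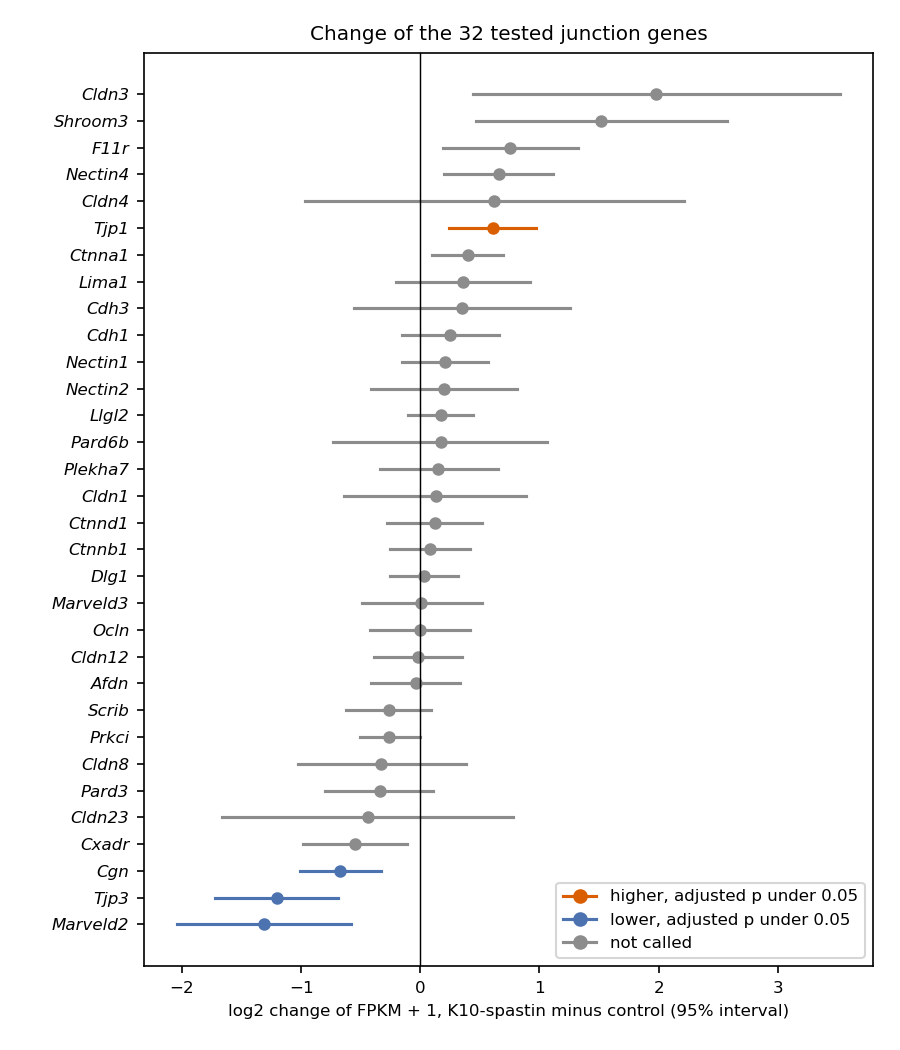
Change in log2(FPKM + 1), K10-spastin minus control, for the 32 tested junction genes with the 95% interval from limma, orange where called higher, blue where called lower and grey where not called. Tjp1 is called higher at 0.61, Marveld2, Tjp3 and Cgn are called lower at -1.31, -1.20 and -0.67, and the widest intervals are those of Cldn4 and Cldn3.

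Among the other tight junction membrane proteins, Ocln (occludin) was level between the groups. It stood at 16.49, 18.1 and 17.9 FPKM in K10-spastin 1 to 3, against 14.53, 21.8 and 16.8 FPKM in controls 1 to 3, and its change was 0.00 ± 0.18 with a 95% interval of -0.42 to 0.42. Ocln and Marveld2 encode related MARVEL proteins and are adjacent protein-coding genes on chromosome 13 in GENCODE M21. Their ratio was 6.50, 3.17 and 2.53 in K10-spastin 1 to 3, against 1.22, 1.48 and 1.25 in controls 1 to 3. It too was chosen after the values were seen, with an exact permutation p of 0.1, again the smallest possible. The third MARVEL gene, Marveld3, had overlapping groups and a change of 0.01 ± 0.22.

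F11r encodes the adhesion molecule JAM-A, which recruits polarity proteins to the forming junction. It was the most abundant of these membrane proteins, at 283, 184 and 142 FPKM in K10-spastin 1 to 3, against 107, 124 and 115 FPKM in controls 1 to 3. The groups did not overlap, but the K10-spastin libraries spread over 1.998-fold, and the change of 0.75 ± 0.24 was not called (limma adjusted p = 0.0822). It was called in 1 of 17 alternatives, without K10-spastin 3 (limma adjusted p = 0.0317, and up to 0.211 in the others). Cxadr, a related adhesion receptor, stood at 33.9, 29.4 and 26.6 FPKM in K10-spastin 1 to 3, against 34.8, 47.5 and 51.6 FPKM in controls 1 to 3. Its change was -0.55 ± 0.19 (limma adjusted p = 0.0943). The groups did not overlap, although control 1 was close to K10-spastin 1. Cxadr was called lower in 2 of 17 alternatives, without both of these libraries and with array weights (limma adjusted p up to 0.292 in the others). Cxadr shares 695 exonic bases with Btg3 on the opposite strand, a gene with a mean of 48.0 FPKM, so its level is uncertain if reads were counted without strand.

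Claudin transcripts were dominated by Cldn4, the highest claudin in every library and the junction gene with the highest mean in both groups. Cldn4 stood at 1074, 513 and 370 FPKM in K10-spastin 1 to 3, against 129, 696 and 620 FPKM in controls 1 to 3. The groups overlapped, with K10-spastin 1 above every control, control 1 below every K10-spastin library and the other K10-spastin libraries below the other controls, and the change of 0.62 ± 0.68 had a 95% interval of -0.97 to 2.21 (limma adjusted p = 0.572). Without control 1 the change was -0.16, without K10-spastin 1 it was 0.19, and without both it was -0.59. With array weights it was -0.42, so the sign of the Cldn4 difference depended on control 1 and on how libraries were weighted.

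Cldn1, the claudin required for the skin barrier in newborn mice, was the second claudin by level. It stood at 121, 56.1 and 70.7 FPKM in K10-spastin 1 to 3, against 50.3, 93.7 and 78.2 FPKM in controls 1 to 3, and the groups overlapped (change 0.13 ± 0.33, limma adjusted p = 0.826). The summed level of the 8 claudins was 1232, 595 and 469 FPKM in K10-spastin 1 to 3, against 201, 824 and 725 FPKM in controls 1 to 3. The sums did not differ beyond the spread between libraries (two-sided exact permutation p = 0.6, where 0.1 is the smallest p that 3 against 3 can give). Cldn1 made up 9.84%, 9.44% and 15.1% of the sum in K10-spastin 1 to 3, against 24.99%, 11.4% and 10.8% in controls 1 to 3 (exact permutation p = 0.5). The high share in control 1 stood beside its low Cldn4 and its low granular marker sum of 1831 FPKM, where controls 2 and 3 had 6170 and 5460 FPKM. Most of that sum in the controls was Lor, at 1205, 5188 and 4608 FPKM in controls 1 to 3. Control 1 was the lowest control for each granular marker except Tgm3 and Casp14. The part of that library's layer markers was not tested.

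**Figure D4:**
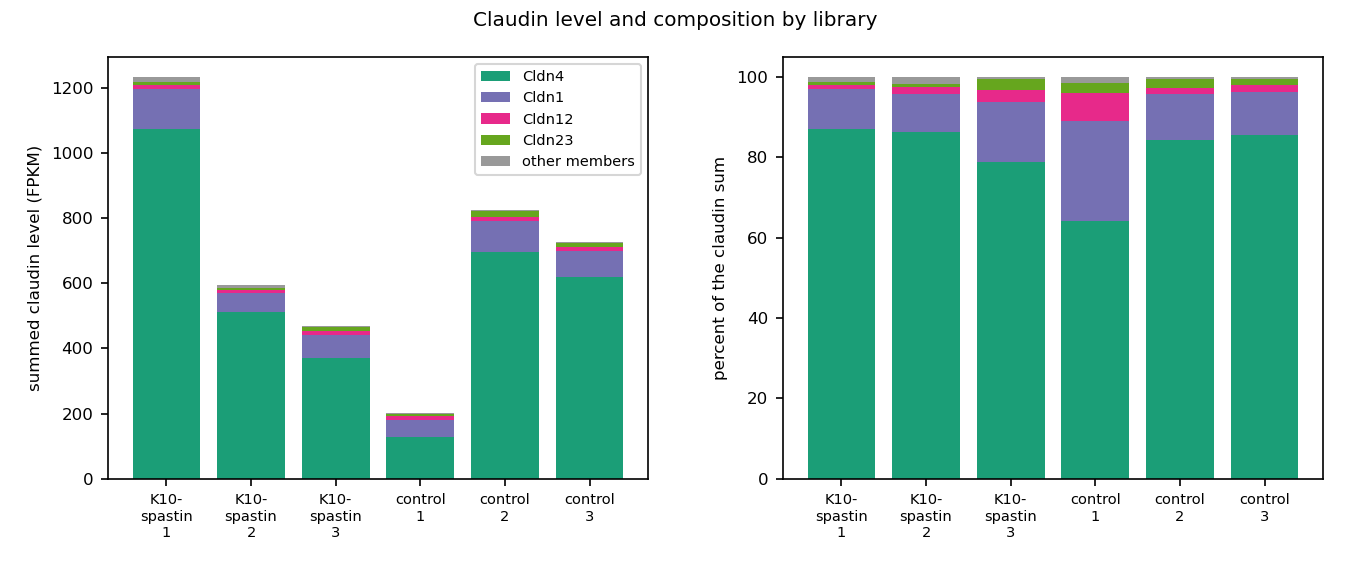
Summed FPKM of the 8 claudins in each library (left) and the percent of that sum held by each (right), K10-spastin libraries left of controls, with Cldn3, Cldn6, Cldn7 and Cldn8 as other members. Control 1 has the lowest sum, 201 FPKM, and K10-spastin 1 the highest, 1232 FPKM.

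The claudin with the largest fold between group means was Cldn3, which lies next to Cldn4 on chromosome 5. It stood at 14.7, 6.78 and 1.24 FPKM in K10-spastin 1 to 3, against 0.212, 0.695 and 1.15 FPKM in controls 1 to 3. K10-spastin 3 was barely above control 3. The change of 1.98 ± 0.66 was not called (limma adjusted p = 0.0892). It was called in 1 of 16 alternatives, without K10-spastin 3 (limma adjusted p = 0.0103, and up to 0.2525 in the others). Cldn3 reached the mean of 1 FPKM through its K10-spastin values, since the control mean was 0.686 FPKM.

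The rest of the claudins were low or level. Cldn12 had the narrowest range, at 11.4 to 14.02 FPKM in K10-spastin and 11.7 to 13.7 FPKM in control (change -0.02 ± 0.16). Cldn23 ranged over 3.48 to 12.02 FPKM in K10-spastin and 5.17 to 18.6 FPKM in control, and Cldn8 over 0.440 to 1.71 FPKM in K10-spastin and 1.008 to 2.11 FPKM in control, with overlapping groups and no call in either. Cldn6, a claudin of early epithelia and periderm, stood at 0.383, 0.882 and 0.230 FPKM in K10-spastin 1 to 3, against 0.0886, 0.290 and 0.0802 FPKM in controls 1 to 3, or about 7 to 30 fragments in K10-spastin and 2 to 8 in control. Cldn7 ranged over 0.0700 to 1.24 FPKM in K10-spastin and 0.486 to 1.06 FPKM in control. Of 21 other claudin genes with a row in the table, 8 were listed at 0 in every library and none exceeded 0.3965 FPKM in any.

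The adherens junction genes had no member called, but some of their 95% intervals were wide, such as -0.56 to 1.26 for Cdh3. Cdh1 (E-cadherin), the main classical cadherin of epidermis, stood at 602, 539 and 418 FPKM in K10-spastin 1 to 3, against 373, 472 and 455 FPKM in controls 1 to 3. The groups overlapped through K10-spastin 3, and the 95% interval of the change ran from -0.15 to 0.66. Cdh3 (P-cadherin), which is strongest in basal cells and hair placodes, stood at 11.6, 16.4 and 5.11 FPKM in K10-spastin 1 to 3, against 7.33, 6.02 and 10.04 FPKM in controls 1 to 3. P-cadherin made up 1.89%, 2.95% and 1.21% of the cadherin sum in K10-spastin 1 to 3, against 1.93%, 1.26% and 2.16% in controls 1 to 3 (exact permutation p = 0.9), so E-cadherin held nearly all of it in either group. The summed cadherin level averaged 531 ± 97.5 FPKM in K10-spastin and 441 ± 53.0 FPKM in control (SD, n = 3 each, exact permutation p = 0.3).

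Catenins connect cadherins to actin and, for beta-catenin, also carry WNT signals. Ctnnb1 (beta-catenin) had the highest level of them, at 357, 479 and 411 FPKM in K10-spastin 1 to 3, against 423, 370 and 378 FPKM in controls 1 to 3, with overlapping groups and a 95% interval of -0.25 to 0.42. Ctnna1 (alpha-catenin), the actin-binding subunit, stood at 114, 118 and 96.4 FPKM in K10-spastin 1 to 3, against 85.9, 79.3 and 83.0 FPKM in controls 1 to 3. K10-spastin libraries were all above the controls, and the change of 0.40 ± 0.13 missed the threshold (limma adjusted p = 0.0811). It was called in 1 of 17 alternatives, with array weights (limma adjusted p = 0.0423, and up to 0.252 in the others). Ctnnd1 (p120-catenin), which stabilises cadherins at the membrane, stood at 7.82 to 10.1 FPKM in K10-spastin and 7.82 to 9.02 FPKM in control. Its exons share 4482 bases with the annotated gene Gm28635, which is listed at 0 in every library, and its level is uncertain if reads of the pair were set aside. The summed catenin level averaged 534 ± 65.0 FPKM in K10-spastin and 481 ± 31.3 FPKM in control (SD, n = 3 each, exact permutation p = 0.3).

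Nectins start cell contacts and bind afadin (Afdn). Nectin4, the most abundant of the 3 listed, stood at 199, 137 and 121 FPKM in K10-spastin 1 to 3, against 91.2, 102 and 89.2 FPKM in controls 1 to 3. Every K10-spastin library was above every control, and the change was 0.66 ± 0.20 (limma adjusted p = 0.0697). It was called in 2 of 17 alternatives, with array weights and without K10-spastin 3. The limma adjusted p ran from 0.0385 to 0.2075 over the 17. Nectin1 and Nectin2 had overlapping groups and changes of 0.21 ± 0.15 and 0.20 ± 0.26. The summed nectin level was 363, 339 and 248 FPKM in K10-spastin 1 to 3, against 220, 249 and 235 FPKM in controls 1 to 3, and K10-spastin 3 fell just within the controls (exact permutation p = 0.2). Afdn was level, at 65.7 to 69.4 FPKM in K10-spastin and 56.5 to 81.5 FPKM in control (change -0.04 ± 0.16).

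Of the proteins that tie junctions to the cytoskeleton, Shroom3, which drives contraction of the cell apex, had the largest change. It stood at 24.8, 14 and 9.86 FPKM in K10-spastin 1 to 3, against 2.09, 6.03 and 7.19 FPKM in controls 1 to 3. The groups did not overlap, and the mean level in K10-spastin was 3.18 times that in control, but both groups were wide and the change of 1.52 ± 0.45 was not called (limma adjusted p = 0.0677, and 0.0543 to 0.144 in 17 alternatives). Lima1 (EPLIN), an actin-bundling partner of alpha-catenin, stood at 49.4, 71.8 and 37.3 FPKM in K10-spastin 1 to 3, against 34.9, 40.3 and 43.8 FPKM in controls 1 to 3, with overlapping groups. Plekha7, the microtubule minus-end tether, stood at 21.4, 36.3 and 24.2 FPKM in K10-spastin 1 to 3, against 26.2, 22.6 and 22.7 FPKM in controls 1 to 3. The interval of its change was -0.34 to 0.65, and the higher mean in K10-spastin came from K10-spastin 2.

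None of the 6 polarity genes was called. Llgl2, a Scribble-complex partner that opposes the Par complex, was the most abundant, at 199, 198 and 192 FPKM in K10-spastin 1 to 3, against 160, 191 and 174 FPKM in controls 1 to 3. Its groups did not overlap and its change was 0.17 ± 0.12. Prkci, the atypical protein kinase C of the Par complex, stood at 123, 114 and 109 FPKM in K10-spastin 1 to 3, against 134, 142 and 139 FPKM in controls 1 to 3. These groups did not overlap, in the other direction, with a change of -0.26 ± 0.11 (limma adjusted p = 0.163). Prkci was called in 1 of 17 alternatives, with array weights (limma adjusted p = 0.0186, and up to 0.649 in the others). Scrib was likewise lower in every K10-spastin library, at 60.9 to 84.98 FPKM in K10-spastin and 87.6 to 90.4 FPKM in control (change -0.26 ± 0.15, limma adjusted p = 0.275). Pard3, the Par scaffold, had overlapping groups and a change of -0.34 ± 0.20, and Pard6b, its partner, had one of 0.17 ± 0.38, with control 1 at 6.75 FPKM and controls 2 and 3 at 18.8 and 20.3 FPKM. Dlg1 was at 61.7 to 62.1 FPKM in K10-spastin and 55.6 to 67.0 FPKM in control.

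Across the 32 tested members, 21 had a positive and 11 a negative change, with a median of 0.12, where 41.6% of all genes tested had a positive change and their median was -0.09. The number with a positive change ranged from 13 to 23 and the median from -0.05, with array weights, to 0.26, under median-of-ratios scaling. The median over all genes was 0.05 under that scaling and -0.01 with array weights, so the members lay above it in the first case and below it in the second. Without control 1 and K10-spastin 1 together the member median was 0.04, with 53.1% positive, and that of all genes 0.03, with 52.3% positive. Of the tested members, 16 kept the sign of their change in every setting, and the other 16, Cdh1, Cldn1 and Cldn4 among them, did not. The groups did not overlap in 13 of the 32 tested members, 7 with K10-spastin above and 6 with it below, or 40.6%, where 40.4% of all genes tested had groups that did not overlap. The share among the members was thus near that background.

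Some features of single libraries in the list were near those of all genes, and that of control 1 was not. K10-spastin 1 was the library farthest from the control mean in 18 of 32 tested members, or 56.2%, and in 59.6% of all genes. Control 1 was the lowest control in 21 of 32 tested members, or 65.6%, where it was the lowest in 32.1% of all genes. The difference was large in Cldn3, Cldn4, Cldn23, Shroom3 and Pard6b, where the highest control was 5.43, 5.39, 3.60, 3.44 and 3.004 times the lowest. The K10-spastin libraries spread more than the controls in 23 of 32 tested members and in 74.4% of all genes. The median ratio of highest to lowest library was 1.52 in K10-spastin and 1.25 in control over the members. Over all genes tested it was 1.556 and 1.265, so the spread of the members was near that background.

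Other genes linked to these junctions also moved in both directions. They come from lists drawn up by known function, but with earlier results of these data known. The lists hold regulators and related proteins as well as junction components. Of 24 further tight junction genes tested, 3 rose and 3 fell, where 5.14% of all genes tested were called higher and 5.9% lower. The genes that rose were Epcam, an adhesion protein that stabilises claudins in gut epithelium (0.95 ± 0.16), St14, the protease matriptase (0.80 ± 0.14), and Ybx3, a transcription factor bound by ZO-1 and the most abundant of the list (0.48 ± 0.12). Epcam stood at 63.9, 46.4 and 48.3 FPKM in K10-spastin 1 to 3, against 24.2, 28.2 and 27.6 FPKM in controls 1 to 3, so the groups were well apart. The genes that fell were Wnk4, a kinase that acts on claudins in the kidney (-2.20 ± 0.36), Marveld1 (-1.53 ± 0.32) and the scaffold Magi1 (-0.86 ± 0.22). Wnk4 stood at 1.90, 5.56 and 5.53 FPKM in K10-spastin 1 to 3, against 30.0, 17.9 and 19.4 FPKM in controls 1 to 3. Limma adjusted p-values of these genes ran from 0.0161 for Wnk4 to 0.0475 for Magi1, and the median change of the list was 0.12.

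Of 23 further adherens junction genes tested, Trip6, a LIM protein of contacts, was the 1 that rose (0.72 ± 0.17, limma adjusted p = 0.0377), and the most abundant, the actin cross-linker Actn4, had a change of 0.15 ± 0.13. Among 24 further polarity genes tested, 3 rose and 1 fell. Each of these counts stands beside the 5.14% of all genes called higher and 5.9% called lower. The genes that rose were Crb3, the epithelial Crumbs protein (0.88 ± 0.21), the small GTPase Rac1 (0.50 ± 0.12) and Vangl1, a planar polarity protein (1.21 ± 0.28), and the gene that fell was Lin7b, a Crumbs-complex scaffold (-1.39 ± 0.26). Tiam1, an activator of Rac and the most abundant gene of the list, had a change of -0.23 ± 0.12. The medians of both lists, 0.01 and -0.15, lay on either side of 0. The claudin-domain gene Cldnd1, the sole tested gene of the further claudin list, rose by 1.14 ± 0.25 (limma adjusted p = 0.0335). Without control 1, control 2 or control 3 no gene of these 4 lists was called by limma, with 2 to 4 adherens junction, 6 or 7 tight junction and 5 or 6 polarity genes and Cldnd1 at an unadjusted p under 0.05. With no filter 2 tight junction genes were called higher, and 1 tight junction and 1 polarity gene lower, with no call in the other lists. Without K10-spastin 2 the calls were 2 higher and 2 lower among tight junction genes and 1 lower among adherens junction genes, and array weights called 4 adherens junction genes lower, where none was as reported.

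**Figure D5:**
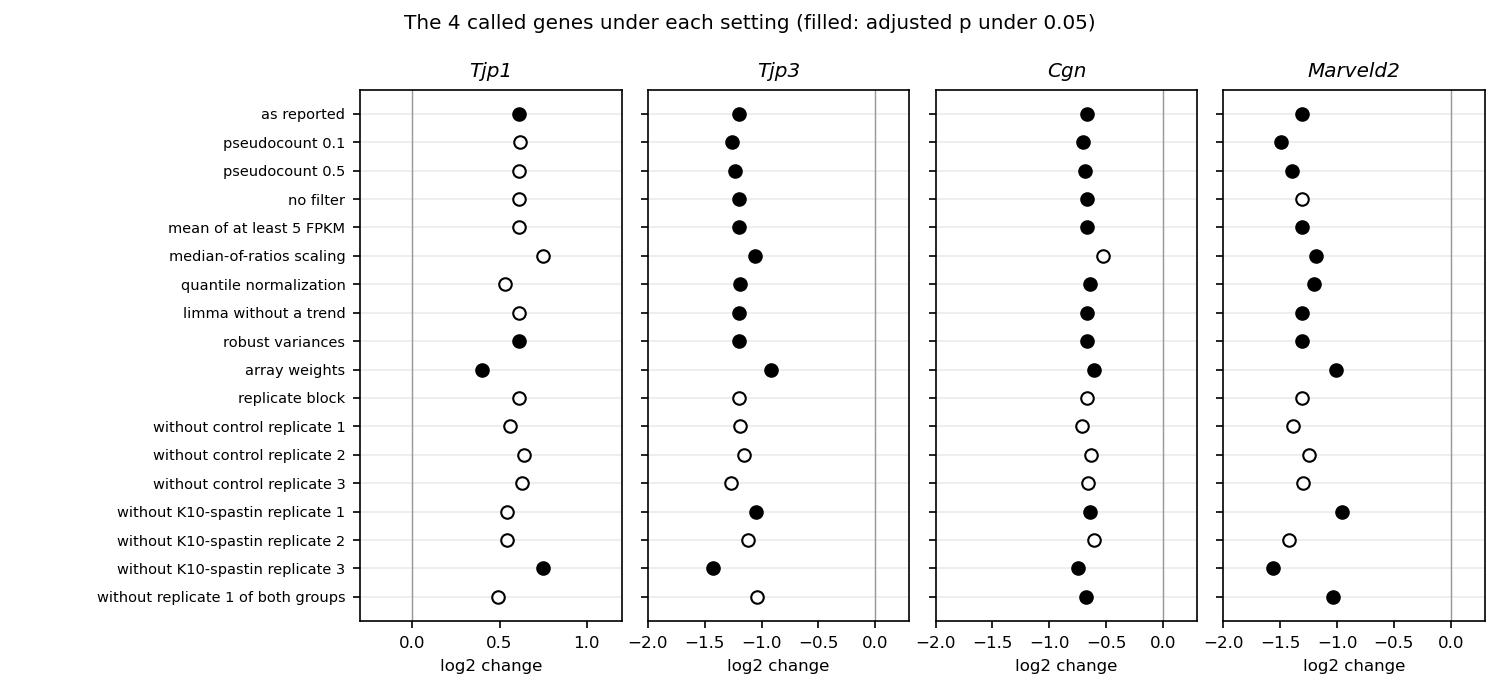
Change in log2(FPKM + 1), K10-spastin minus control, of Tjp1, Tjp3, Cgn and Marveld2 as reported and in 17 alternatives, filled where the limma adjusted p was under 0.05. Every change keeps its sign, and all 4 genes lose the call without any one control, without K10-spastin 2 or with the replicate block.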

How the data were processed

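RNA was measured in 6 libraries, 3 labelled K10rtTA;TREspastin and 3 labelled control. The authors deposited FPKM, fragments scaled by gene length and depth, with 1 column per library. The submitters' processing notes name CASAVA and TopHat2 without versions, but no source used here gives the counter, genome build, gene models or strand setting. Symbols matched 34490 of 35275 identifiers. Depth per library was estimated from the spacing of low FPKM values in 14953 genes with 1 transcript in GENCODE M21, where 90.5% to 91.5% of values up to 20 fragments were whole within 0.05. Genes averaging 1 FPKM or more were tested on log2(FPKM + 1), a scale that understates changes of low genes, with limma 3.58.1 in R 4.3.3 (eBayes with a trend, two-sided, Benjamini-Hochberg over 11071 genes, called under 0.05). The fit was also run on simulated data, without outcome given here. Those data had equal spread in every library, whereas here K10-spastin libraries spread more than controls in 74.4% of all genes. Sums and shares had exact permutation tests. Members and lists were chosen with earlier results of these data known. All members could be named, called ones and the most abundant of each family in every library, and of each further list the called genes and the most abundant. Copies were found with BLAST 2.17.0 (at least 90% identity over at least 200 bases). Promoter windows were found for 24 of 35 members. Of the listed symbols outside the members, 5 had no match of their own, and Flg among them was not analysed here. An item is not reported here and was left out of its list.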

Additional observations from a re-analysis of the deposited data

How the results depend on the processing

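Depth limits the low genes, such as Cldn6, which rest on few fragments. The junction genes called higher, 1 as reported, numbered 0 with pseudocounts of 0.1 or 0.5, no filter, a filter at 5 FPKM, median-of-ratios scaling, quantile normalization, no trend, the replicate block, and without control 1 and K10-spastin 1 together (added after the data were seen), 3 with array weights, and 0 to 4 with each library left out (limma, with 8 to 13 members at an unadjusted p under 0.05 in each setting). Those called lower, 3 as reported, numbered 5 with array weights, 0 with the replicate block and 0 to 3 with each library left out. Over all genes, 569 were higher and 653 lower as reported, 319 and 348 with no filter, 1535 and 1771 with array weights, 274 and 218 with the replicate block, and 114 to 687 and 31 to 707 with each library left out. With a filter at 5 FPKM 414 were lower. The replicate numbers mark no shared litter or day in the labels, and same-numbered libraries did not deviate together (r = -0.128, -0.378 and -0.0471). With the block the limma adjusted p was 0.0559 for Marveld2, 0.0563 for Tjp3, 0.117 for Cgn and 0.126 for Tjp1, and of the further lists 1 tight junction and 1 polarity gene were called, both lower. The difference in summed claudin level, 182 FPKM higher in K10-spastin as reported, was -243 FPKM without control 1 and K10-spastin 1 together, and with each library left out it ran from -51.6 to 330 FPKM. The difference in the Cldn1 share of the summed claudin level, -4.27 percentage points as reported, was 1.17 without both, and ran from -6.74 to 0.366 with each library left out. That in the Cdh3 share of the summed classical cadherin level, 0.236 as reported, ran from -0.232 to 0.642 with each library left out. The cause was not tested.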
